A study of Drosophila melanogaster with 18 samples.

Results

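Long noncoding RNA (lncRNA) genes make transcripts that do not serve as messages for long proteins. The 38 genes described here are the rows of the deposited expression table whose FlyBase symbol starts with lncRNA and whose mean over all 18 libraries was at least 1 RPKM (read numbers divided by the length of the gene and the depth of the library), out of 384 lncRNA rows and 15682 rows in all. The members were thus chosen by their mean RPKM, so their levels are given as a description. For 29 of the 38 the length used equalled the annotated span, introns included. The values are therefore not levels per kilobase of exons. CR32773 had 252145 reads over a length of 223590 bp, with 1868 bp of exons. Of the other 346 lncRNA rows, 155 were at 0 in every library.

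The libraries were made from polyA RNA of whole Drosophila melanogaster ovaries in 3 experiments. Each experiment set 3 libraries of a mutant genotype, labelled ada2b, ataxin7 or nonstop, against 3 libraries labelled FRT, the control that the labels call wild type. The comparison of each mutant with its own FRT control addresses which genes depend on a given module of the SAGA transcription coactivator. The labels call the replicates biological triplicates of each genotype and name no allele, driver or age.

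All 6 groups shared the same handling as far as the labels state it. Germline clones were produced by a 2 h heat shock of the larvae at 37 °C on each of 2 days, flies were raised at 25 °C on standard food, and females had yeast for 2 to 3 days before dissection. The method is aimed at germline cells that lack a working copy, in an ovary whose follicle cells, muscle and other somatic cells mostly keep one. In these bulk samples, fewer cells of a type and less RNA per cell cannot be told apart.

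SAGA is a multi-subunit coactivator with separate enzymatic modules. Ada2b belongs to the module that acetylates histone H3, whereas Ataxin-7 and the ubiquitin protease Non-stop belong to the module that removes ubiquitin from histone H2B. Many lncRNAs are short, weakly expressed and specific to a stage or cell type. Some are precursors that are cut by Drosha into microRNAs (miRNAs), some lie inside protein-coding genes, some run antisense to them, and some stand alone.

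Depth was high throughout, with 22608286 to 42018396 reads on genes per library, the shallowest library being ada2b library 1. The targeted genes were checked first. Ada2b stood at 6.17 to 8.75 RPKM in the ada2b libraries against 44.4 to 46.5 in FRT, and the non-stop gene, not, at 1.52 to 1.82 RPKM against 17.9 to 24.0. Atxn7 went the other way, with 12.4 to 12.5 RPKM in the libraries labelled Ataxin-7 against 7.59 to 7.92 in FRT, so every direction given below for that mutant is that of libraries carrying the label. The ada2b libraries stood apart in their levels of several cell type markers. Their 6 chorion genes, eggshell genes of late follicle cells, summed to 951 to 2700 RPKM against 18870 to 21385 in FRT, and 10 muscle genes to 206 to 348 RPKM against 19.8 to 37.8. The 5 vitelline membrane genes, also of follicle cells, overlapped, at 10810 to 15114 RPKM against 12743 to 17426. The 4 germline markers in the table summed to 162 to 230 RPKM in the ada2b libraries against 345 to 375. In the libraries labelled Ataxin-7 the muscle genes summed to 66.6 to 92.4 RPKM against 34.4 to 48.3, and in non-stop the chorion genes summed to 8606 to 11276 against 3505 to 7780, with muscle genes overlapping. Neural markers summed to less than 1 RPKM in every library. The part of these shifts in the results on lncRNA genes was not tested.

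Of the 38 genes, 36 are known by a CR number only, and Hsromega and sphinx have names. In the BDGP6.54 annotation, matched by FlyBase ID, 5 contain an annotated miRNA gene on their own strand, 1 contains a small nucleolar RNA (snoRNA) gene inside a ribosomal protein gene, 8 overlap another gene on the same strand, 10 overlap a gene on the opposite strand and 14 overlap none. The X chromosome carries 13 members, 3L 9, 3R 6, 2L 5, 2R 3 and the fourth chromosome 2. There are 8 members of 1 exon and 30 with more.

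Levels were uneven. CR42491 alone made up 32.5 to 62.5% of the summed RPKM of all members in a library, although all 38 together took 0.172 to 0.242% of the reads on genes. Its values ran from 329 RPKM in non-stop library 3 to 875 in an FRT library of the same experiment. CR40469 (mean 143 RPKM) and CR43900 (mean 135) came next, followed by CR42862 (55.7), CR43264 (26.4), CR43685 (21.1), CR30055 (20.0), CR43250 (17.1), CR43496 (16.6) and CR43973 (15.9). The median member had a mean of 6.01 RPKM, 14 members reached 10 and 3 reached 100. Libraries were scaled within each experiment, so levels set across experiments are approximate.

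The cutoff fell in a thin region of the distribution. Just inside it were CR43301 at 1.30, CR43962 at 1.22 and sphinx at 1.11 RPKM, and just outside CR43995 at 0.955, CR31781 at 0.806 and CR32582 at 0.730. Because mutant libraries entered the mean, 7 members had a mean under 1 RPKM over the 9 FRT libraries, namely CR43857, CR43626, CR31044, CR43989, CR43301, CR43962 and sphinx. CR43626, CR31044 and CR43962 would not be members without the libraries labelled Ataxin-7, nor sphinx without the ada2b libraries, where each is high. Their values in that comparison are therefore given as a description, with no test.

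**Figure D1:**
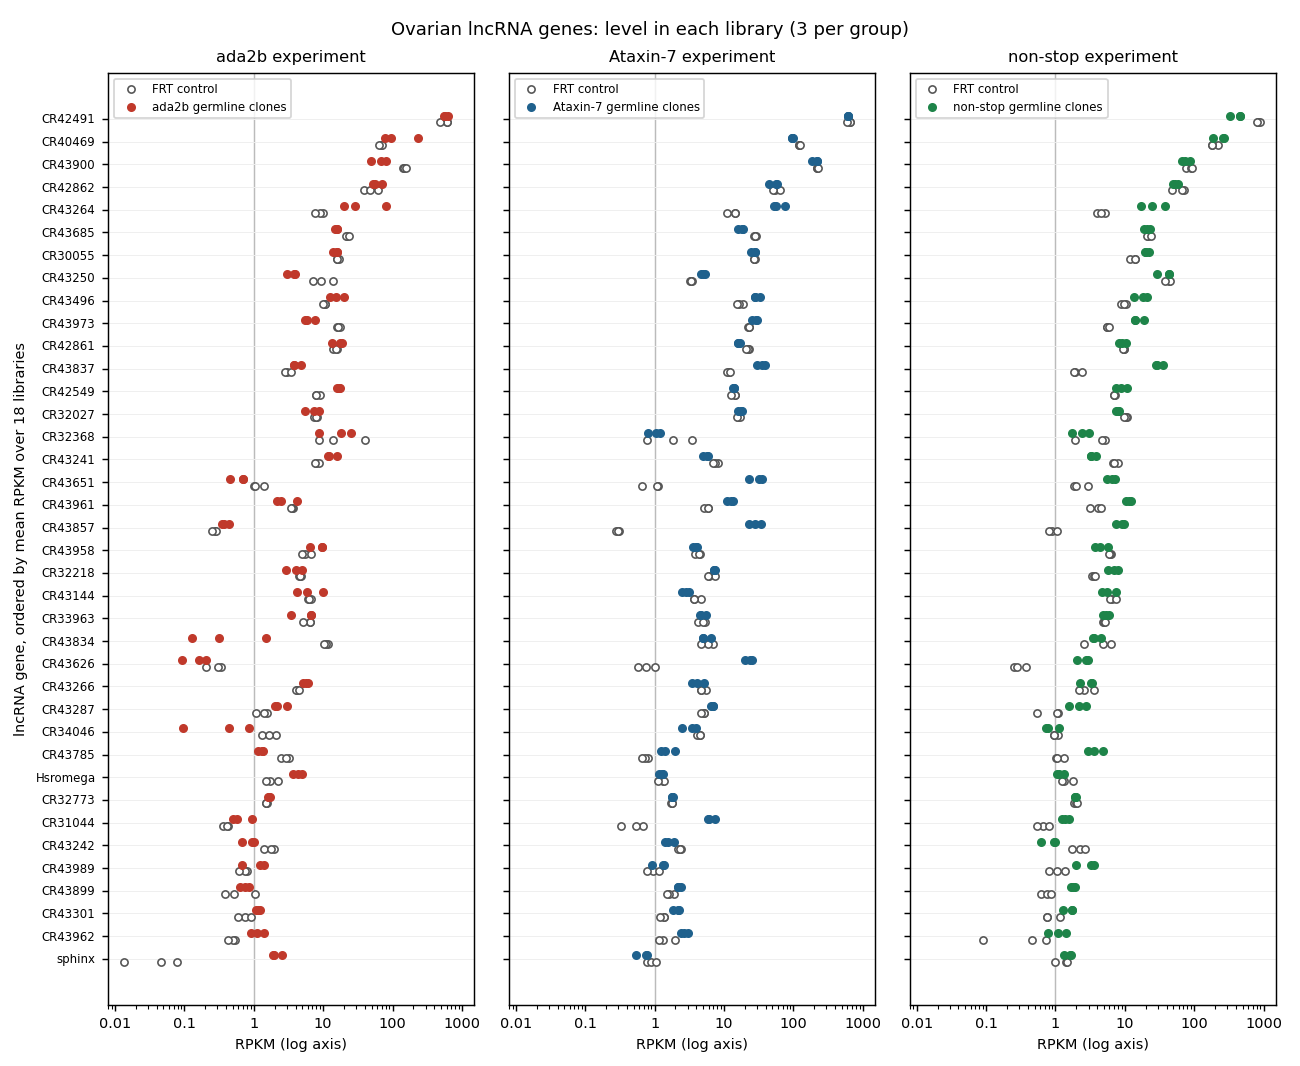
RPKM (log axis) of each of the 38 lncRNA genes in every library, in 1 panel for each of the 3 mutants; open points are the 3 FRT libraries and filled points the 3 mutant libraries. CR42491 lies at the top of every panel, at 329 to 875 RPKM, and CR43857, CR43651 and CR43626 stand far to the right of their controls in the Ataxin-7 panel.

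To find which lncRNA genes differed in the ada2b ovaries, the change was tested on the log2(RPKM + 1) scale with limma over all genes with a mean of at least 1 RPKM in the 6 libraries. Members moved in both directions. Leaving out sphinx, a member only through these libraries, CR43264, CR42549, Hsromega and CR43241 rose most, and CR43834, CR43973, CR43250, CR43900 and CR34046 fell most. Of 30 members tested, 18 passed an adjusted p of 0.05 (60.0%, against 67.9% of the 7674 genes tested), 10 higher and 8 lower. The background was 25.6% higher and 42.3% lower. At least 2-fold, 2 members rose and 4 fell, against 8.63% and 9.89% of all genes. In these counts, here and below, 2-fold means a change of at least 1 on the log2(RPKM + 1) scale, not a ratio of RPKM. CR34046 fell from a mean of 1.69 to 0.459 RPKM but was at -0.90 on that scale, so it is not counted. The counts include sphinx, and CR43834, CR34046 and CR43242, which reached the mean of 1 RPKM only through the FRT libraries, where they are high. Over the other 26 members 9 rose and 5 fell, 1 and 3 of them by 2-fold. The median change of the tested members was 0.03 on the log2 scale against -0.13 over all genes. Scaling every library to a common median moved the median of all genes to 0.11, a shift of 0.25, and then 14 members were called higher and 8 lower, so changes smaller than that shift depend on the scaling. The 8 members not tested, all under a mean of 1 RPKM in this experiment, were CR43651, CR43857, CR43626, CR31044, CR43989, CR43899, CR43301 and CR43962.

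With the Ataxin-7 label the rises included those of miRNA precursors. Leaving out CR43626, CR31044 and CR43962, whose values here made them members, CR43857 and CR43651 rose most, followed by CR43264, CR43837 and CR43961, while CR43685, CR42861, CR43144, CR43241 and CR40469 fell most, none of them by 2-fold. Of 37 members tested, 21 passed (56.8%, against 44.3% of 7428 genes), 15 higher and 6 lower, where the background was 20.0% higher and 24.3% lower. At 2-fold or more 7 members were higher and none lower, against 1.32% and 0.606% of all genes. CR43626, CR31044 and CR43962 are among the 15, and the first 2 among the 7. CR43651, CR43857, CR43785 and CR43989 reached a mean of 1 RPKM in these 6 libraries only through the mutant ones. Over the 30 members to which neither applies, 9 were higher and 6 lower, and 3 were higher by 2-fold. Only sphinx was not tested.

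In the non-stop ovaries more members rose than fell. CR43837, CR43857, CR43264, CR43626 and CR43961 rose most, and CR42491, CR43241, CR43242, CR43958 and CR32027 were the 5 that fell. Of 36 members tested, 21 passed (58.3%, against 50.8% of 7492 genes), 16 higher and 5 lower, where the background was 25.7% higher and 25.0% lower. At 2-fold or more 8 members were higher and 1 lower, against 2.19% and 1.37% of all genes. The median change of tested members was 0.22 on the log2 scale against -0.01 over all genes. CR43857, CR43626, CR43287, CR31044, CR43899 and CR43301 reached the mean of 1 RPKM only through the non-stop libraries, and CR43242 only through FRT. Over the other 29 members 10 rose and 4 fell, 6 and 1 of them by 2-fold, and their median change was 0.06. In all 3 experiments, the members called that reached the filter through 1 group, leaving out sphinx, CR43626 and CR31044 in the comparison that made them members, also passed in a fit with no filter on level (adjusted p of at most 0.0426, limma). CR34046 and CR43962 were not tested.

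**Figure D2:**
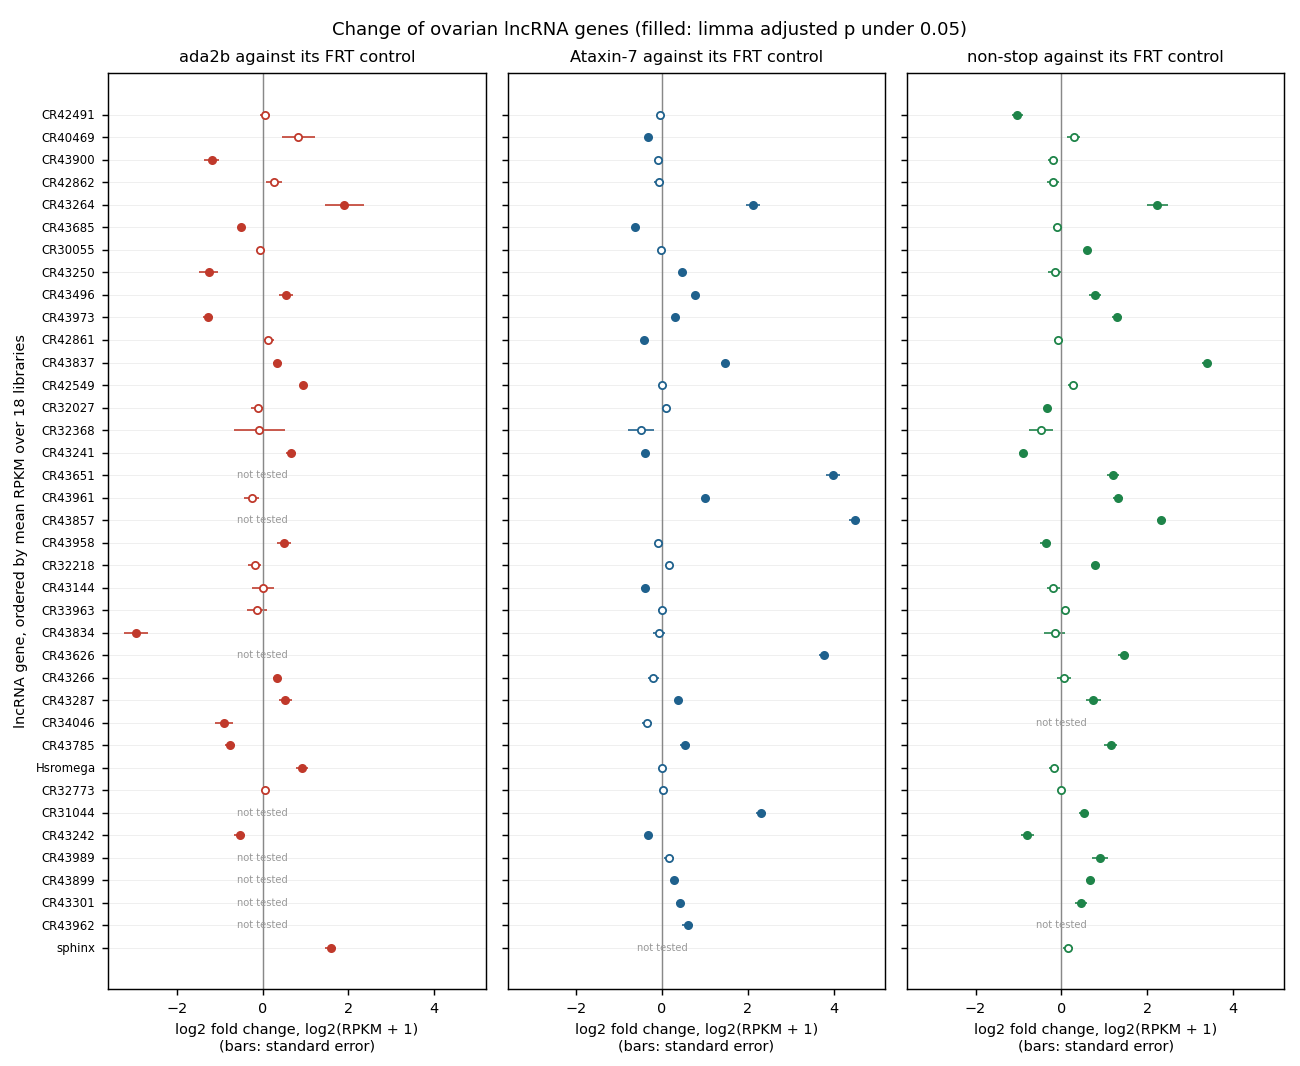
Change of each lncRNA gene in ada2b, Ataxin-7 and non-stop ovaries against FRT, on the log2(RPKM + 1) scale with its standard error; filled points passed an adjusted p of 0.05 and members without a point were not tested. The right-hand extremes are CR43857 at 4.49 in the libraries labelled Ataxin-7 and CR43837 at 3.38 in non-stop, and the left-hand extreme is CR43834 at -2.95 in ada2b.

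Among the members are miRNA precursors. MiRNAs silence messages, and their polyadenylated primary transcripts are normally cleaved in the nucleus soon after they are made. The 5 members of this class were CR43651, which holds mir-14, an miRNA known from work on cell death and fat metabolism, CR43857 with mir-275, CR43626 with mir-282, CR31044 with mir-279 and mir-996, miRNAs known from sensory neurons and border cell migration, and Hsromega with mir-4951. The first 4 genes lie on different arms, at 2R 9552844 to 9553940, 2L 7423820 to 7425932, 3L 3249340 to 3254504 and 3R 29214562 to 29219667. The mature miRNAs themselves are not measured by such libraries.

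CR43651 stood at 32.1, 23.3 and 35.4 RPKM in the libraries labelled Ataxin-7 against 0.655, 1.1 and 1.09 in their FRT controls. Every one of these mutant libraries lay far above every control. CR43651 reached the level tested there only through the mutant libraries, so the fit without a filter is given. The change in it was 3.99 on the log2 scale (adjusted p = 0.000357, limma), and the ratio of mean RPKM was 31.9. In non-stop it stood at 5.53, 6.63 and 7.12 RPKM against 1.85, 2.01 and 2.91. The rise there was smaller, without overlap, at 1.2 (SE 0.141, adjusted p = 0.000505). In ada2b it was listed at 0.704, 0.46 and 0.692 RPKM against 1.40, 1.02 and 1.05, under the level tested.

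CR43857 read 27.9, 23.3 and 34.3 RPKM in the libraries labelled Ataxin-7 and 0.275, 0.309 and 0.298 in FRT. The groups were separated by a wide gap, with a 96.9-fold ratio of means. The gene lies on 2L, the arm of Atxn7. In non-stop, whose gene is on 3L, it read 7.38, 9.75 and 8.98 RPKM against 0.883, 0.81 and 1.07, again without overlap. It reached the level tested there only through the non-stop libraries. In the fit without a filter it rose by 2.33 (adjusted p = 0.000611, limma). In ada2b all 6 values lay between 0.249 and 0.441 RPKM. CR43857 remains a member without the libraries labelled Ataxin-7, at a mean of 2.12 RPKM.

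CR43626 read 23.8, 20.4 and 25.4 RPKM in the libraries labelled Ataxin-7 against 0.569, 1.02 and 0.751, and CR31044 read 6.03, 5.97 and 7.52 against 0.33, 0.672 and 0.538. These are the values that made both genes members. In non-stop, which did not decide membership, CR43626 read 2.07, 2.99 and 2.72 RPKM against 0.256, 0.282 and 0.374. Both genes reached the level tested there only through the non-stop libraries, so the fit without a filter is given, in which CR43626 rose by 1.46 (adjusted p = 0.00104, limma). CR31044 read 1.37, 1.57 and 1.25 RPKM against 0.653, 0.548 and 0.806 and rose by 0.52 (adjusted p = 0.0069). All of these comparisons were free of overlap between mutant and FRT libraries. In ada2b, CR43626 stayed under 0.34 RPKM in all 6 libraries and CR31044 under 0.94.

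The rises of CR43651 and CR43857 differed in size between the 2 mutants of the deubiquitinase module when the difference itself was tested. The change in the libraries labelled Ataxin-7 minus that in non-stop was 2.79 for CR43651 and 2.16 for CR43857 on the log2 scale (adjusted p = 8.93e-06 and 7.89e-06, limma). The precursor of mir-8, CR43650, is an lncRNA gene with a mean too low to be a member. It read 0.583, 0.571 and 0.726 RPKM in the libraries labelled Ataxin-7 against 0.104, 0.119 and 0.0578, and 0.0985, 0.127 and 0.113 in non-stop against 0.167, 0.111 and 0.0558. In ada2b it read 0.419, 0.269 and 0.262 RPKM against 0.0733, 0.147 and 0.0772. The groups did not overlap in ada2b or under the Ataxin-7 label.

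**Figure D3:**
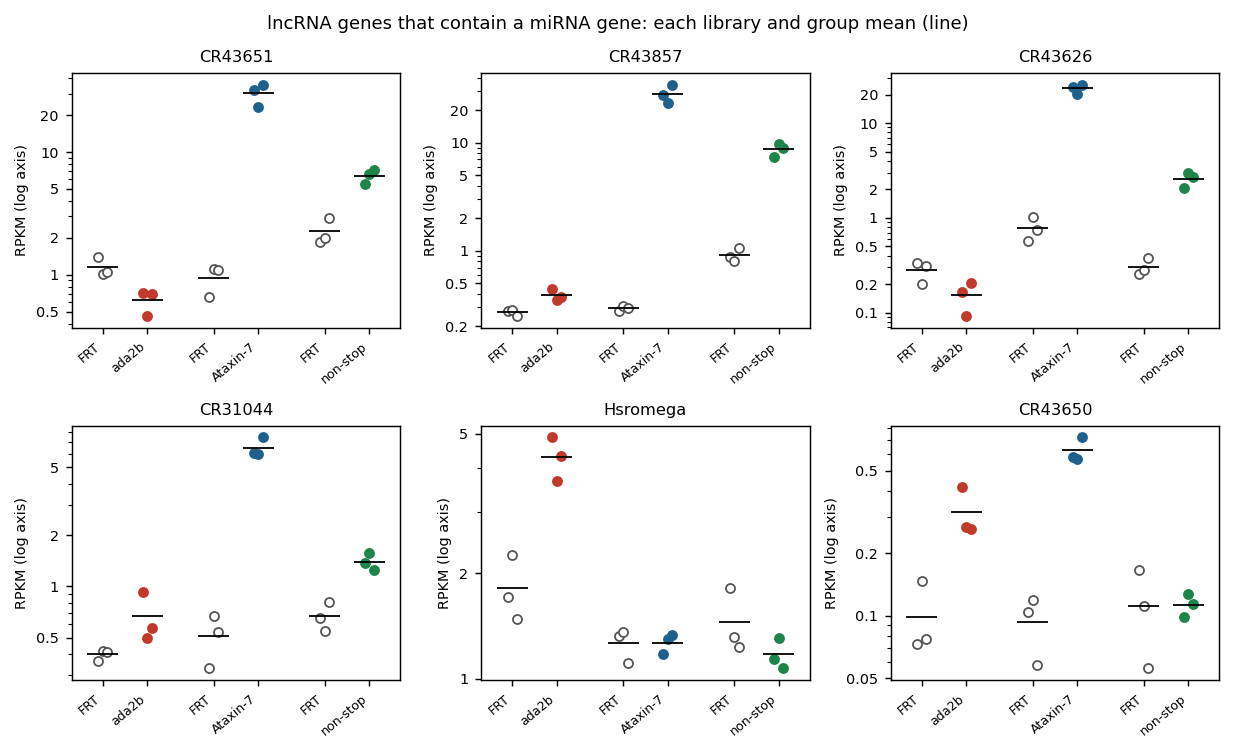
RPKM (log axis) of the 5 member genes that contain a miRNA and of CR43650, the mir-8 precursor, in each library of the 3 experiments; open points are FRT libraries and filled points mutant libraries. CR43651, CR43857, CR43626, CR31044 and CR43650 lie above their FRT controls in all 3 libraries labelled Ataxin-7, while Hsromega reads 3.66 to 4.90 RPKM in ada2b against 1.49 to 2.25 in FRT.

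Genes of miRNA processing were read beside these precursors in a list added after the precursors' values had been seen. Drosha and its partner pasha cut the primary transcript, Dcr-1 and loqs cut the hairpin, AGO1 carries the mature miRNA, and Ars2 links capped transcripts to the processing machinery. Under the Ataxin-7 label, Ars2 (0.23) and pasha (0.15) rose and loqs fell by 0.11 on the log2 scale, while drosha, Dcr-1 and AGO1 did not pass. In non-stop, Ars2 (0.43) and pasha (0.25) rose and none of the 6 fell, which became 1 higher and 1 lower both under the common median and under quantile normalization. In ada2b, drosha, pasha, Dcr-1 and loqs fell, by 0.76, 0.66, 0.64 and 0.48. The counts of this list and of the other gene lists stand against the 67.9%, 44.3% and 50.8% of all genes that passed in ada2b, the libraries labelled Ataxin-7 and non-stop.

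Hsromega behaved differently from the other precursors. It is the heat-inducible RNA of the 93D puff, which gathers RNA-binding proteins into nuclear omega speckles, and its span at 3R 21296127 to 21317836 includes mir-4951. It read 4.90, 3.66 and 4.32 RPKM in ada2b against 1.71, 2.25 and 1.49 in FRT. All 3 ada2b libraries lay above the controls, with a change of 0.91 (SE 0.138, adjusted p = 0.00125, limma). In the libraries labelled Ataxin-7 it read 1.17, 1.30 and 1.33 RPKM against 1.32, 1.36 and 1.11, and in non-stop 1.14, 1.31 and 1.07 against 1.81, 1.32 and 1.24. The ada2b change exceeded that in non-stop by 1.08 in the direct test. Among 8 proteins of omega speckles, 1 rose and 2 fell in ada2b, but the split became 4 higher and 1 lower after common median scaling. Under the Ataxin-7 label, 4 of the 8 rose and none fell, and in non-stop 3 rose and none fell.

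The other named member, sphinx on the fourth chromosome (975168 to 977261), is a gene peculiar to Drosophila melanogaster that has been linked to male courtship. It read 2.57, 1.89 and 1.97 RPKM in ada2b, from 112 to 175 reads, against 0.0772, 0.0465 and 0.0137 in FRT, from 1 to 7 reads. The ada2b values were the highest of the 18 and their FRT controls the lowest. The change was 1.58 on the log2(RPKM + 1) scale, which understates the ratio at such low levels. These values made sphinx a member, its mean being 0.901 RPKM without the ada2b libraries, so no test is given. FRT libraries of the other experiments read 0.788 to 1.47 RPKM, so the FRT control of the ada2b experiment was itself low compared with the other FRT controls. In non-stop sphinx read 1.68, 1.35 and 1.64 RPKM against 1.44, 1.0 and 1.47 (adjusted p = 0.325).

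Well-studied lncRNA genes outside the group were near 0. The X-linked roX1 and roX2, which guide dosage compensation in males, had means of 0.101 and 0.00788 RPKM, and let7C, bxd, noe and cherub had 0.0239, 0.229, 0.435 and 0.00415. The Uhg snoRNA host genes are in the table at means of 6.06 (Uhg8) to 131 (Uhg7) RPKM but carry no lncRNA symbol, so they are not members. The proteins that work with roX RNA in males, the MSL complex, were transcribed. In non-stop, msl-1 (0.58), msl-3 (0.69), mle (0.41), mof (0.30) and Clamp (1.07) all rose, while msl-2 was not tested. Under quantile normalization 4 of these 5 passed. Under the Ataxin-7 label 3 of 6 rose, and in ada2b msl-2 rose (0.54) and 4 fell, a split that became 2 and 2 under the common median.

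The most abundant member lies inside a ribosomal protein gene. CR42491 (FBgn0259993, X, 762615 to 763810) shares its strand with RpL22, a protein of the large ribosomal subunit, and holds the snoRNA gene snoRNA:Psi18S-531. Reads of overlapping genes on the same strand cannot be assigned to either with certainty, and the rule by which the authors assigned them is not stated. CR42491 read 460, 457 and 329 RPKM in non-stop against 823, 875 and 812 in FRT. All 3 mutant libraries lay below the controls, a fall of 1.02 on the log2 scale (SE 0.137, adjusted p = 0.000839, limma). RpL22 fell by 1.05 (adjusted p = 0.00064) in the same libraries, reading 254 to 363 RPKM against 604 to 662. In ada2b CR42491 read 548 to 638 RPKM against 491 to 612, and in the libraries labelled Ataxin-7 611 to 620 against 602 to 656, and neither comparison passed. The row of snoRNA:Psi18S-531 itself rose by 1.71 in ada2b (adjusted p = 0.00126, limma). It was at -0.17 in the libraries labelled Ataxin-7 and -0.22 in non-stop without passing.

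CR43900 (FBgn0264501, 2R, 12259409 to 12260813) overlaps Cam, which encodes the calcium sensor calmodulin, on the same strand. It read 48.9, 80.7 and 68.8 RPKM in ada2b against 142, 148 and 157. The groups did not overlap, and it fell by 1.19 (SE 0.174, adjusted p = 0.00111, limma) while Cam fell by 1.02 (adjusted p = 0.000735). CR42549 lies within mura, a RING finger gene, and rose in ada2b by 0.94 (SE 0.0792, adjusted p = 0.000128), from 7.85, 9.10 and 7.87 RPKM in FRT to 15.8, 17.2 and 17.4. All 3 ada2b libraries lay above the controls, and mura rose by 0.41 in the same comparison. CR32218, which overlaps the chromatin remodeller Mi-2 and the elongation factor Su(Tpl), rose in non-stop by 0.79 (adjusted p = 0.00096), where Su(Tpl) rose by 0.38 and Mi-2 was at -0.04 without passing.

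CR43241 lies at 2L 22131221 to 22132435 within CG42748. It passed in all 3 comparisons and CG42748 in none, but the difference between both genes was not tested. It read 16.0, 12.2 and 11.9 RPKM in ada2b against 7.78, 8.68 and 7.58, a rise of 0.66 (SE 0.121, adjusted p = 0.00296, limma). It fell by 0.39 (adjusted p = 0.00634) in the libraries labelled Ataxin-7, with 5.91, 4.95 and 5.73 RPKM against 8.28, 7.40 and 7.0. In non-stop it fell by 0.89 (SE 0.0872, adjusted p = 0.000254), with 3.26, 3.80 and 3.29 RPKM against 7.91, 6.81 and 7.04. None of the 3 comparisons showed overlap between mutant and FRT libraries. The ada2b change exceeded those in non-stop and in the libraries labelled Ataxin-7 by 1.55 and 1.05 in the direct tests.

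The remaining genes of this class moved little. CR42862 (within CG33229), CR33963 (within Tis11) and CR32773, whose span on the X covers several genes, passed in no comparison. CR43958, which overlaps the DNA glycosylase gene Tdg, was at 0.50 in ada2b (adjusted p = 0.0348) and -0.37 in non-stop (adjusted p = 0.0379). Both calls were lost when single libraries were left out, 4 different libraries in ada2b (adjusted p = 0.0957 to 0.114; FRT libraries 1 and 3, ada2b libraries 2 and 3) and 5 in non-stop (adjusted p = 0.0696 to 0.106; all but non-stop library 2). Over the class, 4 of 8 passed in ada2b, 1 of 8 in the libraries labelled Ataxin-7 and 3 of 8 in non-stop, against 67.9%, 44.3% and 50.8% of all genes. Every pair in which the lncRNA and its same-strand gene both passed moved the same way. These were 3 pairs in ada2b and 2 in non-stop, where CR42491 with RpL22, from outside the class of 8, is counted.

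**Figure D4:**
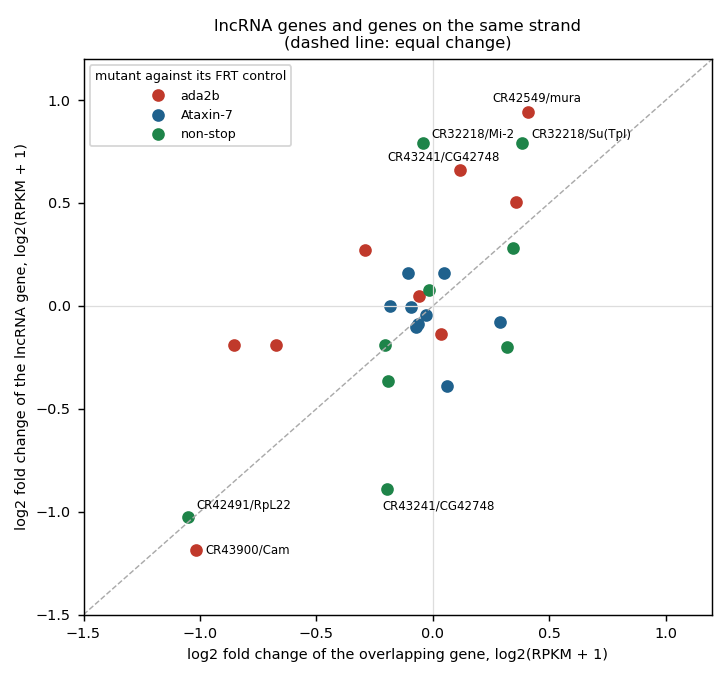
Change of each lncRNA gene (vertical axis) against the change of the gene it overlaps on the same strand (horizontal axis), both on the log2(RPKM + 1) scale, for the 3 mutants; the diagonal marks equal changes. CR42491 with RpL22 and CR43900 with Cam lie near the diagonal at about -1, while the points of CR43241 with CG42748 lie off it in all 3 mutants.

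Among members antisense to another gene, 5 of 8 tested passed in ada2b (4 higher), 6 of 9 in the libraries labelled Ataxin-7 (all higher) and 9 of 10 in non-stop (8 higher). Of all genes, 67.9%, 44.3% and 50.8% passed, with 25.6%, 20.0% and 25.7% higher. CR43287, CR43899 and sphinx are among the higher members that reached the filter through the mutant libraries in 1 experiment. The kit keeps strand, but whether the counts used it is not stated, so reads of the opposite strand may be included. The genes opposite CR43496, CR43973 and CR43961 (sov, Ctps and Ten-a) were not analysed here.

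CR43264 rose in all 3 mutants. This gene of 1 exon lies at X 5831898 to 5832215, antisense to CG15765, which was at or near 0 in every library. In ada2b it read 80.1, 20.0 and 29.2 RPKM against 10.1, 9.08 and 7.72, a rise of 1.91 (SE 0.465, adjusted p = 0.0101, limma). The ada2b libraries were far apart, and without ada2b library 1 the rise was 1.34 (adjusted p = 0.000759). Under the Ataxin-7 label it read 55.6, 53.1 and 76.7 RPKM against 14.3, 14.6 and 11, a rise of 2.12 (SE 0.156, adjusted p = 0.000136). In non-stop it read 17.1, 24.5 and 38.3 RPKM against 5.24, 4.01 and 4.52, a rise of 2.24 (SE 0.25, adjusted p = 0.000419). Mutant and FRT libraries did not overlap in any of the 3 experiments, and the ratio of means was 4.81, 4.64 and 5.8.

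CR43496 rose by a similar amount in each mutant. It read 19.8, 12.5 and 15.1 RPKM in ada2b against 10.5, 10.6 and 9.87, then 27.8, 28.4 and 32.9 against 18.6, 16.6 and 15.5 in the libraries labelled Ataxin-7, and 13.7, 18.3 and 20.6 against 10.3, 8.96 and 9.70 in non-stop. The groups did not overlap, and the rises were 0.54 (adjusted p = 0.018), 0.78 (adjusted p = 0.000516) and 0.78 (adjusted p = 0.0027, limma). The ada2b call was lost without FRT library 3 (adjusted p = 0.0615). CR43287, antisense to the forkhead gene CHES-1-like, rose by 0.53, 0.38 and 0.75 in ada2b, the libraries labelled Ataxin-7 and non-stop, and lost its ada2b call without FRT library 2 (adjusted p = 0.0616). CHES-1-like was at 0.32, 0.12 and 0.75, and passed in ada2b and non-stop.

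CR43973 (FBgn0264704, 3L, 15098534 to 15099502) took opposite directions. It read 5.47, 5.79 and 7.69 RPKM in ada2b against 15.9, 17.7 and 16.1, a fall of 1.28 (SE 0.122, adjusted p = 0.000203, limma). In non-stop it read 13.9, 19.0 and 14.1 RPKM against 5.51, 5.62 and 6.0, a rise of 1.30 (SE 0.118, adjusted p = 0.000203). With the Ataxin-7 label it read 29.4, 25.5 and 29.9 RPKM against 22.7, 22.5 and 23.1 and rose by 0.30 (adjusted p = 0.00716). In each experiment all mutant libraries lay on 1 side of all FRT libraries. The difference between the ada2b and non-stop changes was -2.58 on the log2 scale. The summed chorion genes were likewise lower in ada2b and higher in non-stop, but they were lower in the libraries labelled Ataxin-7 too (14245 to 16156 RPKM against 19618 to 20970). The part of these cells in the change was not tested.

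CR43961 rose by 1.01 (adjusted p = 0.000129) in the libraries labelled Ataxin-7 and by 1.31 (adjusted p = 0.000193) in non-stop, with 11.2 to 13.5 RPKM against 5.18 to 5.91 and 10.3 to 12.1 against 3.20 to 4.59. Neither experiment showed overlap, and in ada2b the values of 2.15 to 4.15 RPKM overlapped the controls at 3.49 to 3.71. CR30055, antisense to the corepressor gene Sin3A, rose in non-stop by 0.60 (adjusted p = 0.000926, limma), where Sin3A was at -0.06 without passing. CR32027, antisense to the citrate transporter gene Indy, was the 1 antisense member that fell in non-stop, by 0.34 (adjusted p = 0.0054), and Indy fell by 0.44. CR43989 (0.90) and CR43899 (0.68) rose in non-stop as well. CR43899 was at 0.28 in the libraries labelled Ataxin-7 (adjusted p = 0.0214), a call lost without mutant library 3, FRT library 2 or FRT library 3 (adjusted p = 0.0566 to 0.0632).

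Among the 14 members that overlap no other gene, 2 were higher and 6 lower of 12 in ada2b. The counts were 5 and 5 of 14 in the libraries labelled Ataxin-7, and 3 and 1 of 12 in non-stop. Of all genes, 25.6%, 20.0% and 25.7% were higher and 42.3%, 24.3% and 25.0% lower. CR43834, CR34046 and CR43242 in ada2b and CR43242 in non-stop reached the filter only through FRT. CR43785 under the Ataxin-7 label and CR43301 in non-stop did so only through the mutant libraries, and the Ataxin-7 label made CR43962 a member. CR43837 (FBgn0264385, X, 6995882 to 6997799) rose in all 3, and least in ada2b. It read 28.5, 35.0 and 28.7 RPKM in non-stop against 1.89, 1.85 and 2.38 and 34.9, 29.8 and 38.8 in the libraries labelled Ataxin-7 against 11.9, 11.2 and 12.3. Both comparisons were far from overlap, with ratios of means of 15.1 and 2.93. In ada2b it read 3.86, 3.79 and 4.79 RPKM against 2.98, 2.78 and 3.43, a rise of 0.34 (adjusted p = 0.0301, limma) that was lost without FRT library 1, FRT library 2 or ada2b library 3 (adjusted p = 0.0816 to 0.108). The nearest gene on the same strand, the gap junction gene Inx7 at 2270 bp, was picked after its values were seen. It rose in all 3 mutants by 0.82, 0.84 and 1.0 on the log2 scale. The FRT controls of CR43837 differed between experiments, at 1.85 to 12.3 RPKM.

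CR43834 (FBgn0264382, X, 8484194 to 8484580) fell in ada2b. It read 0.127, 1.49 and 0.312 RPKM, from 1 to 18 reads, against 11.6, 10.9 and 10.3 in FRT. The gap between the groups was wide. CR43834 reached the level tested there only through FRT, and in the fit without a filter it fell by 2.95 (adjusted p = 0.00112, limma). In the libraries labelled Ataxin-7 it read 6.53, 4.95 and 5.04 RPKM against 6.91, 5.87 and 4.66, and in non-stop 3.47, 4.58 and 3.56 against 6.35, 4.90 and 2.62. The groups overlapped in both, and neither passed. The ada2b change minus that in non-stop was -2.79, and minus that in the libraries labelled Ataxin-7 it was -2.89, both past the threshold. The gene lies 883 bp from the chorion gene Cp38 on the same strand, and Cp38 read 12.1, 3.63 and 130 RPKM in ada2b against 3804, 3455 and 3948. It also lies 428 bp from otu, a germline gene on the opposite strand, which read 34.8, 64.3 and 55.2 RPKM against 111, 108 and 123. Both neighbours were picked after their values were seen, and the part of late follicle cells in the fall of CR43834 was not tested.

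CR43250 (FBgn0262895, 3L, 17033119 to 17033676) fell in ada2b and rose in the libraries labelled Ataxin-7. It read 3.78, 3.05 and 3.89 RPKM in ada2b against 7.23, 14.0 and 9.43, a fall of 1.26 (SE 0.218, adjusted p = 0.0023, limma). It read 5.41, 4.68 and 4.98 RPKM in the libraries labelled Ataxin-7 against 3.28, 3.41 and 3.39, a rise of 0.46 (adjusted p = 0.000975). Both were free of overlap, while non-stop (28.8, 42.7 and 43.4 RPKM against 43.3, 44.7 and 37.9) did not pass. Ilp8, an insulin-like peptide gene 1039 bp away on the same strand and picked after its values were seen, fell by 2.05 in ada2b (adjusted p = 0.000692) and by 1.01 in non-stop (adjusted p = 0.00254).

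**Figure D5:**
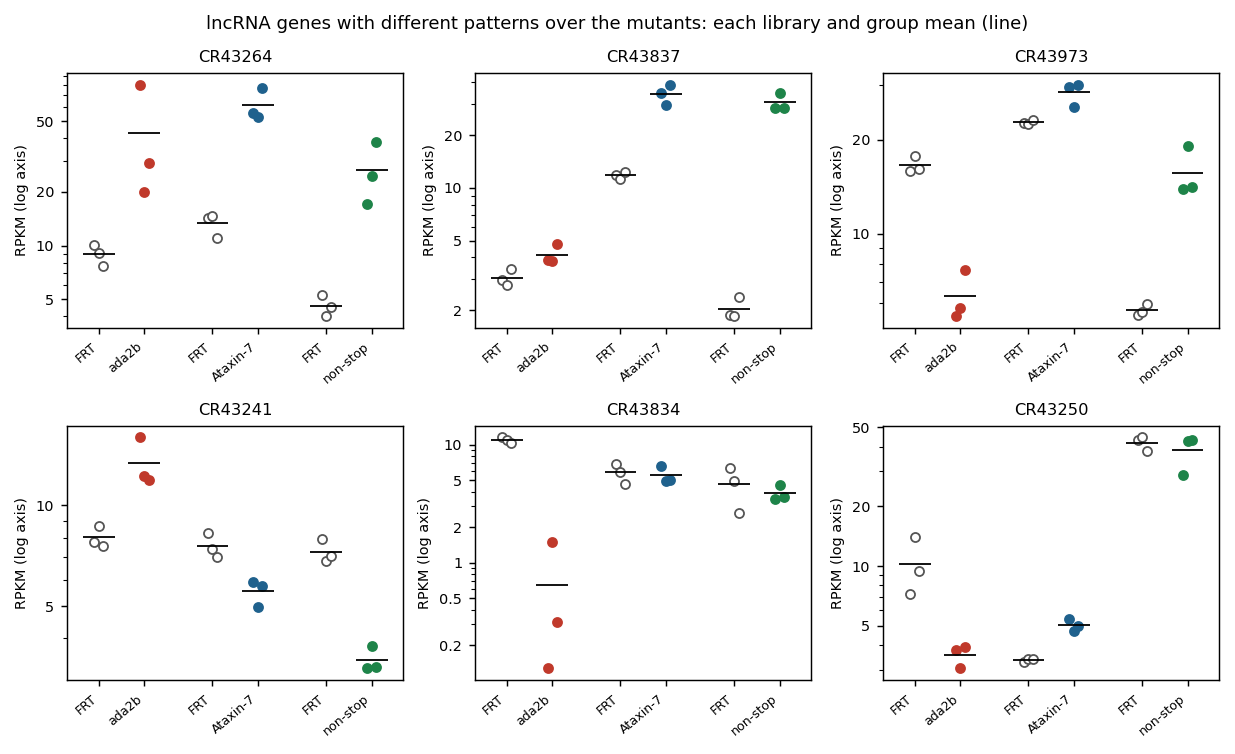
RPKM (log axis) of CR43264, CR43837, CR43973, CR43241, CR43834 and CR43250 in each library of the 3 experiments; open points are FRT libraries and filled points mutant libraries. CR43264 and CR43837 are higher in every mutant, CR43973 and CR43241 take opposite directions in ada2b and non-stop, and CR43834 drops to 0.127 to 1.49 RPKM in ada2b.

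CR43242 was the 1 member lower in all 3 mutants. It read 0.998, 0.951 and 0.687 RPKM in ada2b against 1.96, 1.42 and 1.78, then 1.93, 1.56 and 1.42 against 2.38, 2.14 and 2.30 in the libraries labelled Ataxin-7, and 0.973, 0.952 and 0.613 against 2.24, 2.64 and 1.73 in non-stop. The groups did not overlap, and the falls were 0.53 (adjusted p = 0.00858), 0.32 (adjusted p = 0.0209) and 0.79 (adjusted p = 0.00329, limma). In ada2b and non-stop CR43242 reached the level tested only through FRT, and it also passed there without a filter. The call in the libraries labelled Ataxin-7 was lost without mutant library 2, mutant library 3, FRT library 1 or FRT library 3 (adjusted p = 0.0531 to 0.0717). CR43785 fell in ada2b by 0.76 and rose in the libraries labelled Ataxin-7 by 0.54 and in non-stop by 1.15, reading 2.90 to 4.85 RPKM against 1.02 to 1.32 in the last.

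CR43685, at 14.9, 15.9 and 15.7 RPKM in ada2b against 22.1, 21.5 and 23.7, fell by 0.50 (adjusted p = 0.000611), and at 18.8, 18.2 and 15.7 RPKM against 28.6, 26.9 and 27.9 in the libraries labelled Ataxin-7 it fell by 0.64 (SE 0.065, adjusted p = 0.000428, limma). Neither showed overlap. CR42861 and CR43144 fell in the libraries labelled Ataxin-7 by 0.41 and 0.40. CR34046 fell in ada2b, from 29 to 43 reads in FRT to 1 to 18 reads. It reached the level tested only through FRT, and the fall without a filter was 0.90 (adjusted p = 0.0183, limma). CR43266 was at 0.33 in ada2b (adjusted p = 0.0117), a call lost without FRT library 2 (adjusted p = 0.0532). CR43301 reached the level tested in non-stop only through the non-stop libraries, and was at 0.45 without a filter (adjusted p = 0.0426, limma). With the filter its call was lost without non-stop library 2 or 3 or FRT library 1 or 3 (adjusted p = 0.0659 to 0.0865).

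CR40469 and CR32368 showed how far apart replicates could be. CR40469, a gene of 1 exon and 214 bp on the X, read 233, 77.8 and 95.4 RPKM in ada2b against 67.1, 71.6 and 63.2. All 3 ada2b values were above the controls, but the change of 0.83 had an SE of 0.382 and an adjusted p of 0.0939, and without ada2b library 1 it was 0.35 with an adjusted p of 0.0196. With the Ataxin-7 label the gene fell by 0.33 (adjusted p = 0.000461, limma), from 120 to 126 RPKM to 95.8 to 98.9. CR32368 read 40.3, 8.62 and 13.8 RPKM in the FRT libraries of the ada2b experiment and 25.4, 8.84 and 18.2 in ada2b, and passed in no mutant.

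To compare the mutants with each other, the difference between 2 changes was fitted over the 12 libraries of both experiments. Ada2b differed from non-stop for 20 of 34 members (58.8%, against 70.6% of all genes), with 6 changes higher and 14 lower in ada2b (27.0% and 43.6% of all genes), a split that became 11 and 12 when libraries were scaled to a common median. It differed from the libraries labelled Ataxin-7 for 18 of 36 (50.0%, against 68.5%), 7 higher and 11 lower (26.3% and 42.2% of all genes), which became 11 and 11. The change in the libraries labelled Ataxin-7 differed from that in non-stop for 19 of 38 (50.0%, against 37.5%), 9 higher and 10 lower (16.8% and 20.7% of all genes). Where tested, sphinx, CR43626, CR31044 and CR43962 are counted, although mutant values made them members. Over members with a mean of at least 1 RPKM in FRT, 17 of 30, 15 of 31 and 15 of 31 differed in these pairs. CR43651, which reached the level fitted for ada2b against Ataxin-7 only through the Ataxin-7 label, remains among them. For CR43837 the ada2b change minus the non-stop change was -3.04, and the change in the libraries labelled Ataxin-7 minus the non-stop change was -1.92. For CR43785 the ada2b change lay below those in non-stop and in the libraries labelled Ataxin-7, by -1.91 and -1.30.

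Side by side, 15 members passed in both the libraries labelled Ataxin-7 and non-stop, 13 higher in both, 2 lower in both and none in opposite directions. That is 42.9% of the 35 members tested in both, against 27.7% of all genes, of which 10.6% were higher in both, 13.3% lower in both and 3.83% opposite. Over the 25 members that owe neither their membership nor the filter to 1 group, 24.0% passed in both, under the 27.7% of all genes. Of these 25, 5 were higher in both and 1 lower in both. In ada2b and non-stop 9 passed in both, 4 higher, 1 lower and 4 in opposite directions, and in ada2b and the libraries labelled Ataxin-7 10 passed in both, 4 higher, 2 lower and 4 in opposite directions. Of all genes, 33.4% and 29.3% passed in both of these pairs, and 19.6% and 14.4% in opposite directions. Each comparison had its own controls. Across the 35 members tested in both mutants of the deubiquitinase module, the changes had a Pearson r of 0.68 and a Spearman rho of 0.78, against 0.39 and 0.45 over the 7230 genes tested in both. Over the 30 of them with a mean of at least 1 RPKM in FRT they were 0.66 and 0.73. CR43651 and CR43785, which reached the filter through the Ataxin-7 label, remain among the 30. Across 29 members in ada2b and non-stop, r was 0.17 and rho 0.10. These correlations are across genes that share libraries and are a description. Over all 3 mutants, 34 of 38 members passed at least once and 8 in all 3, and CR42862, CR32368, CR33963 and CR32773 passed in none. The 34 include CR43962, called only in the comparison that made it a member. Of the 28 members tested in all 3, 85.7% passed at least once, against 90.1% of all genes, and 8 passed in all 3, against 1290 of 7171 genes.

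The nuclear exosome, the complex that degrades many noncoding transcripts, was read as the machinery common to the group. Of 11 subunits and cofactors in the table, 9 rose and 1 fell in ada2b (10 and 0 under the common median). Under the Ataxin-7 label 4 fell and none rose, or 36.4%, and in non-stop 5 fell and none rose, or 45.5%, near or under the 44.3% and 50.8% of all genes that passed. Rrp4, a cap subunit, was at 0.52 in ada2b and fell by 0.72 and 0.84 in the others. Rrp40, another cap subunit, was at 0.73 and fell by 0.37 and 0.65. The catalytic subunits Rrp6 and Dis3 were at 0.30 and 0.38 in ada2b, of which only Dis3 passed, and at -0.09 and -0.08, then 0.00 and 0.04, in the other mutants without passing.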

How the data were processed

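Whole ovaries of 18 samples were analysed. The authors deposited a table of RPKM values per gene and library. Their processing notes name CASAVA 1.8.2, TopHat2 2.0.13 and the genome build dm3. How reads were counted, and whether by strand, is not given in the sources used here. Libraries were made with a TruSeq Stranded kit from RNA extracted with RNeasy Plus. Whole reads behind the RPKM could be recovered for all 13903 genes above 0 (tolerance 0.01), and library scaling averaged 1 within each experiment.

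A value of 1 was added to each RPKM before taking log2, and limma 3.58.1 (R 4.3.3) fitted each gene whose mean reached 1 RPKM in the libraries fitted, with trended empirical Bayes moderation. Benjamini-Hochberg adjustment ran over all genes tested at a threshold of 0.05. Each mutant was fitted with its own FRT libraries, and differences between mutants as an interaction over 12 libraries. Because the values are on the log2(RPKM + 1) scale, changes of low genes are understated. SE is the moderated standard error limma gives for a change with 3 libraries a group. Tests were tried on simulated data first.

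The members and gene lists were chosen with earlier results of these data known. Named members are the 5 that rose and the 5 that fell most per mutant without overlap, the 10 most abundant, the 3 largest differences between mutants in each direction, the members at the cutoff, miRNA precursors, characterised lncRNA genes and members called in all 3 mutants. Others named in the text were chosen after their values were seen. Positions, overlaps, contained genes and exon numbers come from BDGP6.54, a later build than dm3, by FlyBase ID. They may not describe the gene models that were counted. The length used was 477 bp against an annotated span of 2940 bp for CR43961. It was 812 against 3152 bp for CR43266 and 2096 against 5165 bp for CR43626. Alternatives were the pseudocount, filter, scaling, trend, length, block, voom on recovered reads, 1 fit of all libraries, and leaving out each library.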

Additional observations from a re-analysis of the deposited data

Results flagged for a closer look

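The results singled out here are members whose change differed between mutants in a direct limma test over the 12 libraries of both experiments, the 3 largest in each direction for each pair of mutants. Differences of sphinx that involve ada2b and of CR43626 that involve the Ataxin-7 label are left out, since those values made them members. All values are differences between changes on the log2(RPKM + 1) scale. Apart from values given as a description only, every adjusted p was under 0.05 over all genes tested.

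Between ada2b and non-stop, the ada2b change was the higher for CR43241 (1.55) and Hsromega (1.08), and the lower for CR43837 (-3.04), CR43834 (-2.79) and CR43973 (-2.58). CR43241 rose in ada2b and fell in non-stop, and CR43973 did the reverse. The share of all genes that differed between these mutants was 70.6%, so a difference as such is common.

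Between the libraries labelled Ataxin-7 and non-stop, the change was the higher under the Ataxin-7 label for the miRNA precursors CR43651 (2.79) and CR43857 (2.16). It was the lower for CR43837 (-1.92), CR43973 (-1.0) and CR43989 (-0.74). The call for CR43989 was lost without mutant library 2 or FRT library 3 of the Ataxin-7 experiment and without FRT library 2, mutant library 2 or mutant library 3 of the non-stop experiment (adjusted p = 0.0562 to 0.0663).

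Between ada2b and the libraries labelled Ataxin-7, the ada2b change was the higher for CR40469 (1.16), CR43241 (1.05) and CR42549 (0.94). It was the lower for CR43651 (-4.40) and CR43857 (-4.36), values given as a description only. Both of these genes reached the level fitted only through the libraries labelled Ataxin-7. They were at low levels in the ada2b experiment, at most 1.40 RPKM. The value for CR40469 was 0.68 without ada2b library 1, which read 233 RPKM against 77.8 and 95.4 in the other ada2b libraries. Its call was lost without FRT library 1 or 3 of either experiment or without mutant library 1 or 3 of the Ataxin-7 experiment (adjusted p = 0.0511 to 0.0585).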

How the results depend on the processing

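No member called in a comparison changed direction under any alternative that kept it in the test. Members not called did, 8 in ada2b, 9 in the libraries labelled Ataxin-7 and 6 in non-stop, and 7, 6 and 9 for the differences, never with a call. The number of members called moved by more than 1.5 times only where the set or the call itself was narrowed. With a mean of at least 5 RPKM, 10 members were called in ada2b, 13 in the libraries labelled Ataxin-7 and 11 in non-stop. With a change of at least 2-fold the counts were 6, 7 and 9, and among members that overlap no other gene 8, 10 and 4. The first and the last leave fewer members eligible, and the 2-fold rule is stricter by construction. Under the pseudocount, no filter, quantile, common median, no trend, voom, exonic length, 18-library and FRT-level alternatives the counts stayed at 17 to 22 in ada2b, 14 to 22 in the libraries labelled Ataxin-7 and 16 to 23 in non-stop, against 18, 21 and 21. Over members that owe neither membership nor the filter to 1 group, a set chosen after seeing the data, they were 14, 15 and 14.

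Leaving out single libraries gave 15 to 18 members in ada2b, 19 to 21 in the libraries labelled Ataxin-7 and 19 to 22 in non-stop. For the differences between mutants the ranges were 18 to 22 for ada2b against non-stop, 15 to 19 for Ataxin-7 against non-stop and 17 to 20 for ada2b against Ataxin-7. Calls that held in every alternative that kept the member in the test numbered 13 of 18, 13 of 21 and 19 of 21 in the 3 mutants, and 18 of 20, 12 of 19 and 17 of 18 for the differences.

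Libraries of the same number did not deviate together (mean correlations of 0.02, -0.16 and 0.04), and 1, 0 and 1 of 3 samples correlated best with their own number. With the replicate number as a block, 18, 21 and 21 members were called, and 20, 17 and 19 for the differences.

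Depth limits the low members most. CR43834, sphinx and CR34046 rested on 1 to 18 reads per library on their low side in ada2b, and 8 members could not be tested there. Reads of overlapping genes cannot be separated from these values, the promoter motif search was not run because no sequence was given, and levels across experiments depend on scaling within each experiment.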

Other observations

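Below the cutoff, lncRNA genes were mostly quiet but not uniformly so. Without a filter on level, 146 other lncRNA rows above 0 entered the ada2b comparison, of which 30 were higher and 5 lower at an adjusted p under 0.05 (limma). In the libraries labelled Ataxin-7 12 of 140 were higher and 8 lower, and in non-stop 10 of 139 were higher and 1 lower. Without a filter, 47.3%, 27.9% and 32.5% of all genes passed in the 3 comparisons. Of these rows, 3 in ada2b passed with a change of at least 1 on the log2(RPKM + 1) scale and none in the other mutants. Rows this low can hardly reach such a change, so the count is a description only. CR43650 went from a mean of 0.0936 to 0.627 RPKM under the Ataxin-7 label, yet by 0.57 on that scale (adjusted p = 0.00123, limma).

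Several further miRNA precursors lie among them. CR43459, which holds mir-34 and mir-277, read 0.0758, 0.116 and 0.162 RPKM in the libraries labelled Ataxin-7 against 0.158, 0.233 and 0.138 in FRT. CR43836 read 0.659, 0.638 and 0.589 RPKM in the same libraries against 0.484, 0.512 and 0.484, and 0.0845, 0.0923 and 0.0885 in ada2b against 0.256, 0.274 and 0.310. The let7C precursor stayed under 0.07 RPKM in all 18 libraries.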
